A study of Mus musculus with 28 samples.

Results

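The genes described here encode the chains of collagens and laminins, the proteins that build fibrils, networks and basement membranes outside cells. They were taken as every probe set that carried a single gene symbol of the form Col, a number, a and a number, or Lam, a, b or c and a number, with the probe set of the highest mean over all arrays kept where a gene had several. This gave 54 genes among 19938, of which 44 were collagen chain genes and 10 were laminin chain genes, and only Col6a5 and Col6a6 had more than 1 probe set. RNA of the 129SvEv mouse strain was hybridised to Affymetrix whole-transcript arrays, 28 in all, which fall into 12 groups. Top2β knockout cells, which lack topoisomerase IIβ, and wild-type cells were profiled at 4 stages of neuronal differentiation: ES (embryonic stem) cells, NP (neuronal progenitor) cells, and neurons labelled TN day 2 and TN day 6. There were 2 arrays of each genotype at the first 3 stages and 3 of each at TN day 6. Cells at TN day 5 had received the topoisomerase II inhibitor ICRF-193 or the solvent DMSO (2 arrays each), and glutamatergic neurons of the E16.5 cortex had received ICRF-193 or DMSO (3 arrays each). The labels give 50 µM ICRF-193, renewed every 24 h between TN day 2 and TN day 5, for all samples, and do not say whether the cortical neurons were dosed over those days. They spell out neither TN nor how many knockout lines were used, and no batch is given. Whether replicates came from different cultures or animals is not stated, so the p-values measure the spread between arrays, which may be technical.

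A laminin is a cross-shaped trimer of 1 alpha, 1 beta and 1 gamma chain, and laminin-111 (Lama1, Lamb1 and Lamc1) is the form of the first embryonic basement membranes and of the membrane made by parietal endoderm. Collagen IV chains form the other network of basement membranes; Col4a1 and Col4a2 are its widespread chains, and Col4a3 to Col4a6 are used in fewer tissues. Fibrillar collagens (Col1a1, Col1a2, Col3a1, Col5a1 and others) form the banded fibrils made by fibroblasts and other mesenchymal cells, and the collagens called FACIT (such as Col12a1 and Col14a1) sit on the surface of those fibrils. Multiplexins (Col15a1 and Col18a1) lie at basement membranes and carry the precursor of endostatin at the end of the Col18a1 chain. In the developing brain, basement membranes lie at the outer surface and around vessels, while fibrillar collagens are made mostly by meninges and vessel-associated cells.

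Top2b itself, which checks the labels, was lower in the knockout arrays at all 4 stages, with 9.04, 8.68 and 9.001 at TN day 6, against 11.32, 11.19 and 11.15 in wild-type arrays, on the log2 scale of the deposited values. The gap was least clear in ES cells, with 7.11 and 5.79 in the knockout arrays, against 7.96 and 7.53 in the wild-type arrays, where knockout array 1 lay about as far below the nearer wild-type array as the wild-type arrays lay apart. The marker lists followed the labels: the mean of 8 pluripotency genes was 9.73 to 10.79 in ES arrays and at most 6.17 in all others, and the mean of 10 neuron genes was 10.33 to 11.33 in the TN and cortical arrays. Array medians lay between 6.12 and 6.43. Replicate arrays of 3 groups stood apart in the chain genes. The 2 knockout ES arrays differed by more than 1 log2 unit in 13 of 54 members (24.1%, against 7.05% of all genes), the 2 wild-type arrays at TN day 2 in 6 members (11.1%, against 1.01%), and the 3 knockout arrays at TN day 6 in 5 members (9.26%, against 0.351%). The 2 knockout arrays at TN day 2 differed so in 2 members, and the other 8 groups in none.

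**Figure D1:**
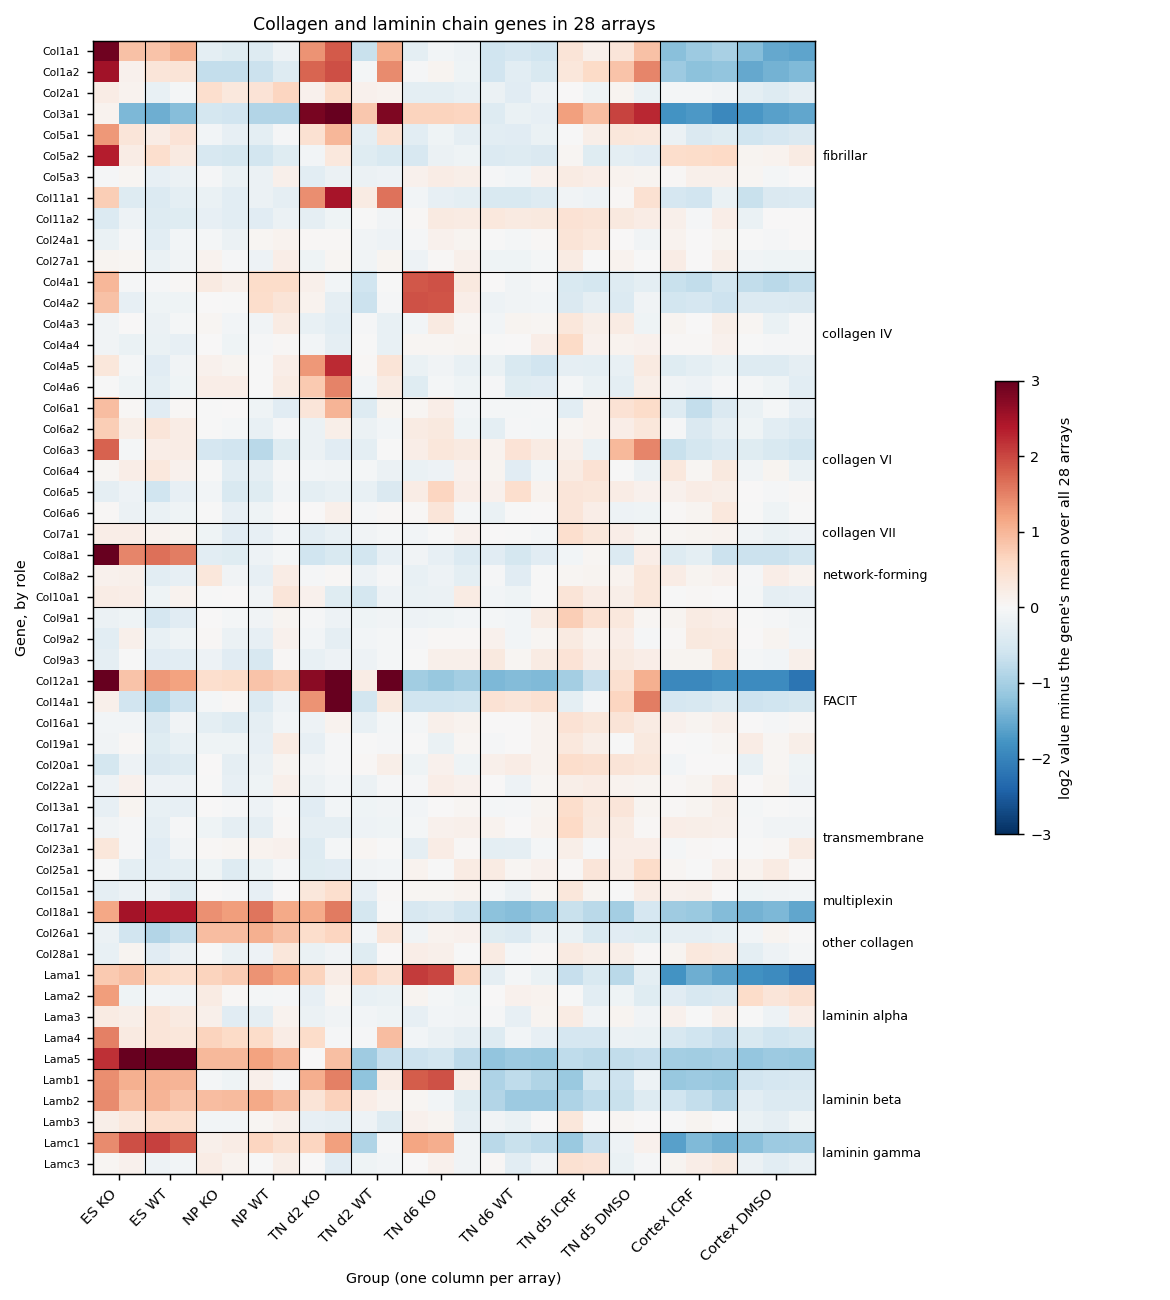
Each row is 1 of the 54 chain genes, ordered by role, and each column 1 of the 28 arrays, with knockout left of wild type and ICRF-193 left of DMSO; colour is the log2 value minus the gene's own mean over all arrays, and colours saturate at 3 log2 units. The strongest colours are in Col1a1, Col1a2, Col3a1, Col8a1, Col12a1, Col14a1, Col18a1, Lama1, Lama5, Lamb1 and Lamc1, and neighbouring columns of the knockout ES cells, of wild-type TN day 2 and of knockout TN day 6 differ within their group.

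Across the 12 groups the chain genes split into a varied minority and a flat majority. The range of the group means, highest minus lowest, had a median of 0.81 log2 units over the 54 members and 1.12 over all genes. It passed 1 log2 unit in 24 members (44.4%, against 55.6% of all genes) and 2 log2 units in 15 members (27.8%, against 22.5%). The highest group mean fell in ICRF-193 at TN day 5 for 18 members, of which 17 were collagens, in knockout TN day 2 for 10, in knockout ES cells for 8, in wild-type ES cells for 5, in knockout TN day 6 and DMSO at TN day 5 for 4 each, in cortical neurons with ICRF-193 for 3 and in wild-type NP cells for 2. The 18 members varied little, with ranges from 0.36 log2 units (Col22a1) to 1.01 (Col9a1), so their highest means were small offsets. The share of all genes with their highest mean in each group was not counted. For 7 of the 54 members even the highest group mean lay below 6.29, the median of all values in the table, so their probe sets were dim in all groups, where a change can be understated.

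Within each role, the member with the highest and the one with the lowest mean signal are given here by their own range over groups; the highest group mean stands before the lowest, and signals of different probe sets are not comparable as amounts. Among the laminins, Lama1 had a highest group mean of 9.74 in knockout TN day 6 and a lowest of 6.22 in cortical neurons with DMSO. Lama3, a chain of epithelial laminin-332, had 5.39 in wild-type ES cells and a lowest of 4.93 in knockout TN day 6. Lamb1 had 10.26 in knockout TN day 2 and a lowest of 7.84 in cortical neurons with ICRF-193. Lamb3, the beta chain of laminin-332, had 6.44 in wild-type ES cells and a lowest of 5.67 in wild-type TN day 2. Lamc1 had 10.84 in wild-type ES cells and a lowest of 7.43 in cortical neurons with ICRF-193. Lamc3 had 7.01 in ICRF-193 at TN day 5 and a lowest of 6.34 in cortical neurons with DMSO. The 3 laminin-111 chains thus each ranged over more than 2 log2 units, and Lama3, Lamb3 and Lamc3 over less than 1. Col4a2 had 8.91 in knockout TN day 6 and a lowest of 7.02 in cortical neurons with ICRF-193. Col4a6 had 6.78 in knockout TN day 2 and a lowest of 5.39 in wild-type TN day 6. Col1a1 had 10.54 in knockout ES cells and a lowest of 7.18 in cortical neurons with DMSO. Col5a2, which joins collagen V fibrils, had 7.13 in knockout ES cells and a lowest of 5.34 in knockout NP cells. Both fibrillar chains thus had their highest mean in knockout ES cells, whose 2 arrays stood apart. Col12a1, the FACIT of tendon and fascia, spanned the widest interval of these, with 10.53 in knockout TN day 2 and a lowest of 5.39 in cortical neurons with DMSO, whereas Col19a1 had 5.59 in ICRF-193 at TN day 5 and a lowest of 5.06 in wild-type ES cells. Col18a1 had 9.99 in wild-type ES cells and a lowest of 6.14 in cortical neurons with DMSO. Col15a1 had 6.65 in knockout TN day 2 and a lowest of 5.94 in wild-type ES cells. The range of Col18a1 passed 2 log2 units and that of Col15a1 stayed under 1. Col26a1, a short collagen with an EMI domain, had 8.44 in wild-type NP cells and a lowest of 6.66 in wild-type ES cells. Col28a1 had 5.23 in cortical neurons with ICRF-193 and a lowest of 4.74 in wild-type ES cells. Col6a6 had 7.14 in ICRF-193 at TN day 5 and a lowest of 6.68 in wild-type ES cells. Col6a4 had 5.91 in ICRF-193 at TN day 5 and a lowest of 5.41 in knockout NP cells. Each of the last 3 ranged over less than 1 log2 unit. Col8a2 had 6.36 in DMSO at TN day 5 and a lowest of 5.86 in wild-type ES cells. Col10a1, the collagen of hypertrophic cartilage, had 5.05 in ICRF-193 at TN day 5 and a lowest of 4.41 in wild-type TN day 2. The transmembrane collagens Col23a1, with 6.72 in DMSO at TN day 5 and a lowest of 6.29 in knockout TN day 2, and Col17a1, with 6.50 in ICRF-193 at TN day 5 and a lowest of 5.79 in knockout TN day 2, and the anchoring fibril collagen Col7a1, with 7.28 in ICRF-193 at TN day 5 and a lowest of 6.58 in knockout TN day 2, stayed within less than 1 log2 unit. Among the other members whose range passed 1 log2 unit, Col5a1, a chain of collagen V, had 7.997 in knockout ES cells and a lowest of 6.65 in cortical neurons with DMSO. Lama4, the alpha chain of vessel laminin, had 6.56 in knockout ES cells and a lowest of 5.08 in cortical neurons with ICRF-193. Col6a1, a short chain of collagen VI, had 7.42 in knockout TN day 2 and a lowest of 6.21 in cortical neurons with ICRF-193.

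**Figure D2:**
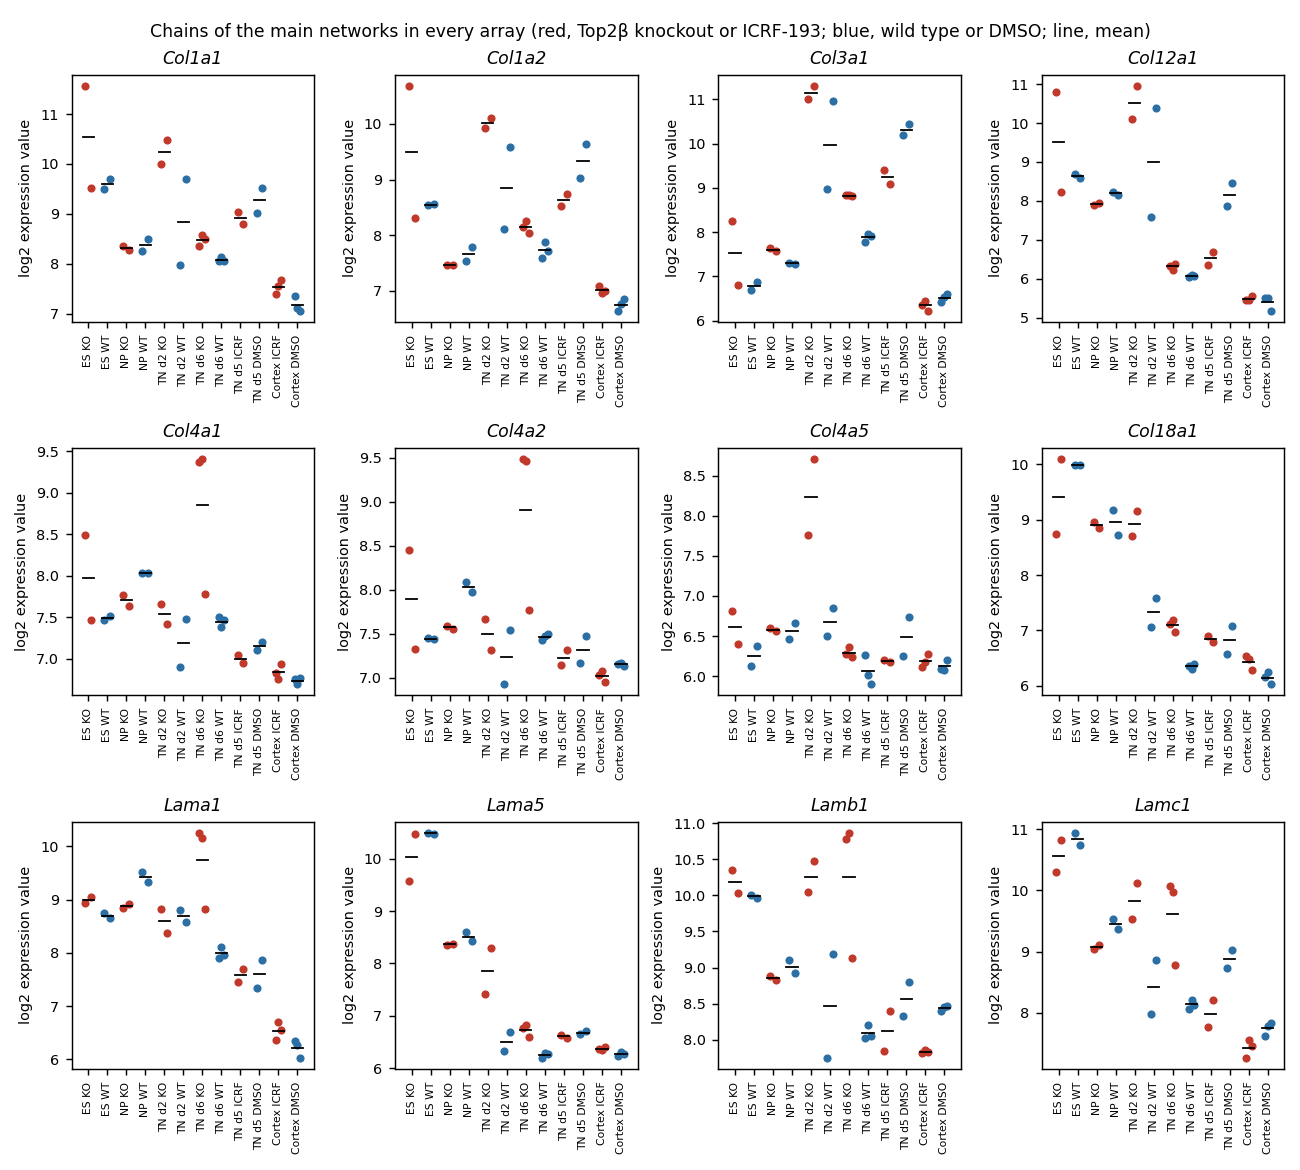
Log2 expression values of 12 chain genes in every array by group (points, arrays; line, group mean; red, knockout or ICRF-193; blue, wild type or DMSO). Col3a1 and Col12a1 have their highest group mean in knockout TN day 2, Lama5 and Col18a1 are high in ES cells and low in later neurons, and Lama1, Lamb1, Lamc1, Col4a1 and Col4a2 are high in 2 of the 3 knockout arrays at TN day 6.

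The wild-type series from ES cells to TN day 6 followed the chains through neuronal differentiation. Lama5, Lamc1 and Col18a1 were lower in NP than in ES cells and lower again at TN day 2. Col3a1, Col1a2 and Col11a1 were higher at TN day 2 than in NP cells and lower at TN day 6 than at TN day 2, although for Lamc1, Col1a2 and Col11a1 these TN day 2 calls depended on single arrays. A member is called higher or lower where it had an adjusted p under 0.05 in the limma model of all 19938 genes. From ES to NP cells, 6 of 54 members were higher (11.1%, against 21.7% of all genes) and 10 lower (18.5%, against 24.5%). From NP cells to TN day 2, 3 were higher (5.56%, against 21.6%) and 9 lower (16.7%, against 26.6%). From TN day 2 to TN day 6, 2 were higher (3.7%, against 16.7%) and 9 lower (16.7%, against 11.9%). The 3 comparisons share arrays with their neighbours, and 1 array could move these counts. From ES to NP cells, 6 members were called without ES array 1 and 9 without ES array 2 or NP array 2, in place of 16. From NP cells to TN day 2, 6 were called without NP array 2, in place of 12. From TN day 2 to TN day 6, 3 were called without TN day 2 array 2, in place of 11. In bulk RNA, fewer cells of a type and less RNA per cell cannot be told apart.

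Lama5, the alpha chain of laminin-511, which supports mouse ES cells in culture, had 10.50 and 10.48 in ES cells, 8.60 and 8.42 in NP cells, 6.32 and 6.69 at TN day 2 and 6.20, 6.29 and 6.27 at TN day 6. The 4 stages did not overlap, although TN day 2 and TN day 6 lay close together. The log2 fold change, given with its SE here and elsewhere, was -1.98 ± 0.22 (adjusted p = 2.07e-07) from ES to NP cells and -2.01 ± 0.22 (adjusted p = 9.2e-08) from NP cells to TN day 2. Lamc1, the gamma chain shared by most laminins, had 10.94 and 10.73 in ES cells, 9.54 and 9.36 in NP cells, 7.98 and 8.85 at TN day 2 and 8.07, 8.21 and 8.13 at TN day 6. It was lower in NP than in ES cells, at -1.39 ± 0.32 (adjusted p = 0.00105), and lower at TN day 2 than in NP cells, at -1.03 ± 0.32 (adjusted p = 0.00951). The second call was lost in 2 of 12 alternative settings, and the change was -0.59 (adjusted p = 0.209) without TN day 2 array 1. Lama1 took another course, with 8.74 and 8.66 in ES cells, 9.52 and 9.34 in NP cells, 8.80 and 8.58 at TN day 2 and 7.90, 8.10 and 7.97 at TN day 6. It was higher in NP than in ES cells (0.73 ± 0.29, adjusted p = 0.0485) and lower at TN day 2 than in NP cells (-0.73 ± 0.29, adjusted p = 0.0449), and each of these calls was lost in 5 of 12 alternative settings. The endoderm markers followed the course of Lama1 only in part. Their list, 10 genes of primitive and parietal endoderm, averaged 6.42 and 6.46 in ES cells and 7.92 and 7.72 in NP cells. It averaged 5.93 and 6.19 at TN day 2 and 5.73, 5.80 and 5.79 at TN day 6. Both were highest in NP cells, but at TN day 2 the list lay below its ES values and Lama1 near its own. The part of endoderm cells in the Lama1 values was not tested. Lamb1 had 10.01 and 9.96 in ES cells, 9.10 and 8.92 in NP cells, 7.75 and 9.19 at TN day 2 and 8.02, 8.20 and 8.06 at TN day 6, and none of its 3 steps passed the test, with adjusted p-values of 0.0561, 0.304 and 0.493. Lamb2, the beta chain of the neuromuscular and glomerular laminins, had 8.55 and 8.40 in ES cells, 8.68 and 8.48 in NP cells, 7.74 and 7.65 at TN day 2 and 6.66, 6.45 and 6.44 at TN day 6, and its step from TN day 2 to TN day 6 was -1.17 ± 0.15 (adjusted p = 2.28e-06).

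Col18a1 had 9.99 and 9.98 in ES cells, 9.18 and 8.72 in NP cells, 7.07 and 7.58 at TN day 2 and 6.35, 6.30 and 6.40 at TN day 6. It was lower at every step, with log2 fold changes of -1.04 ± 0.27 (adjusted p = 0.00364), -1.63 ± 0.27 (adjusted p = 3.1e-05) and -0.97 ± 0.25 (adjusted p = 0.00518). The first of these calls was lost without NP array 2, at -0.81 (adjusted p = 0.0659). Col4a1 had 7.46 and 7.52 in ES cells, 8.04 and 8.04 in NP cells, 6.90 and 7.48 at TN day 2 and 7.50, 7.38 and 7.46 at TN day 6. Col4a2 had 7.45 and 7.44 in ES cells, 8.09 and 7.97 in NP cells, 6.93 and 7.54 at TN day 2 and 7.42, 7.48 and 7.50 at TN day 6. Both collagen IV chains were above ES cells in both NP arrays, but no step of either passed the test, and the adjusted p-values of the step from NP cells to TN day 2 were 0.0525 for Col4a1 and 0.0901 for Col4a2. Col26a1 had 6.58 and 6.74 in ES cells, 8.53 and 8.35 in NP cells, 7.37 and 7.83 at TN day 2 and 7.09, 7.05 and 7.28 at TN day 6. It was lowest in ES cells, and its step from ES to NP cells was 1.78 ± 0.14 (adjusted p = 1.78e-09). Col8a1, a short chain of Descemet's membrane and vessel walls, had 7.71 and 7.60 in ES cells, 5.92 and 6.01 in NP cells, 5.51 and 5.81 at TN day 2 and 5.73, 5.54 and 5.74 at TN day 6. Its step from ES to NP cells was -1.69 ± 0.35 (adjusted p = 0.000372).

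Col3a1, the fibrillar collagen of vessels and soft tissue, had 6.69 and 6.87 in ES cells, 7.29 and 7.29 in NP cells, 8.98 and 10.97 at TN day 2 and 7.77, 7.96 and 7.92 at TN day 6. Its 2 arrays at TN day 2 lay far apart and both above all other stages. The step from NP cells to TN day 2 was 2.68 ± 0.40 (adjusted p = 6.88e-06), and that from TN day 2 to TN day 6 was -2.09 ± 0.37 (adjusted p = 0.000145). Col1a2 had 8.54 and 8.56 in ES cells, 7.53 and 7.78 in NP cells, 8.11 and 9.58 at TN day 2 and 7.59, 7.87 and 7.72 at TN day 6. Its 3 steps were -0.89 ± 0.46 (adjusted p = 0.118), 1.19 ± 0.46 (adjusted p = 0.0359) and -1.12 ± 0.42 (adjusted p = 0.0485). The call of the second step was lost in 3 of 12 alternative settings and that of the third in 8 of 13, and without TN day 2 array 2 these steps were 0.46 (adjusted p = 0.506) and -0.39 (adjusted p = 0.618). Col1a1, its partner in type I collagen, had 9.51 and 9.70 in ES cells, 8.26 and 8.49 in NP cells, 7.98 and 9.70 at TN day 2 and 8.06, 8.14 and 8.05 at TN day 6. Of its steps, that from ES to NP cells passed the test, at -1.23 ± 0.44 (adjusted p = 0.028), a call lost in each fit that omitted an ES or NP array of wild type. Col11a1, a minor fibrillar chain of cartilage, had 6.69 and 6.80 in ES cells, 6.93 and 6.83 in NP cells, 7.33 and 8.71 at TN day 2 and 6.64, 6.65 and 6.72 at TN day 6. It was highest at TN day 2, with steps of 1.14 ± 0.35 (adjusted p = 0.00886) to that stage and -1.35 ± 0.32 (adjusted p = 0.0024) after it, and without TN day 2 array 2 these were 0.45 (adjusted p = 0.317) and -0.66 (adjusted p = 0.16). Col12a1 had 6.04, 6.09 and 6.07 at TN day 6, against 7.60 and 10.39 at TN day 2, a change of -2.92 ± 0.56 (adjusted p = 0.000406). At TN day 2 the first wild-type array was the lower one in all 5 of these genes. Without the second, the steps of Col3a1 were 1.69 and -1.09 and that of Col12a1 was -1.53, all still called.

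Markers of mesenchymal cells moved with the fibrillar chains in part. The mean of the 11 mesenchymal and fibroblast genes was 6.89 and 6.82 in ES cells, 6.76 and 6.68 in NP cells, 6.39 and 7.74 at TN day 2 and 5.95, 6.04 and 6.02 at TN day 6. TN day 2 array 1 thus lay below the ES and NP arrays in this mean and array 2 above them. From NP cells to TN day 2, 2 of the 11 genes were higher, Dcn and Twist1, and none lower. From TN day 2 to TN day 6, 4 were lower, Dcn, Twist1, Prrx1 and Pdgfrb. Pdgfra, by contrast, differed by -0.81 ± 0.50 (adjusted p = 0.198) from NP cells to TN day 2. Dcn, the proteoglycan decorin of collagen fibrils, had 6.38 and 6.32 in ES cells, 6.10 and 6.11 in NP cells, 8.37 and 10.96 at TN day 2 and 6.59, 6.85 and 6.63 at TN day 6. The mean of the 8 smooth muscle genes was 8.37 and 8.33 in the 2 wild-type ES arrays. The list mean was 6.66 or less in the wild-type arrays of the later stages. Of 11 endothelial genes, 5 were higher and 2 lower in NP than in ES cells, and 10 were lower at TN day 2 than in NP cells. The part of such cells in the chain levels was not tested. Of 25 measured genes for collagen folding, processing and crosslinking, 2 were higher and 13 lower in NP than in ES cells, 2 higher and 15 lower at TN day 2 than in NP cells, and 2 higher and 8 lower at TN day 6 than at TN day 2. Serpinh1, the collagen chaperone HSP47, had steps of -1.32 ± 0.29 (adjusted p = 0.000533) from NP cells to TN day 2 and -1.01 ± 0.26 (adjusted p = 0.00545) from TN day 2 to TN day 6. Lox, the enzyme that crosslinks fibrils, was lower in NP than in ES cells, at -3.42 ± 0.59 (adjusted p = 5.72e-05). Of 14 partners in the basement membrane, 1 was higher and 6 lower in each of the first 2 steps, and 6 were lower in the third step, among them the nidogen Nid2, at -1.79 ± 0.30 (adjusted p = 8.46e-05).

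Top2β knockout was compared with wild type first in ES and NP cells (2 arrays each). In ES cells no member was called higher or lower (0 of 54, against 0.0853% of all genes higher and 0.266% lower), although 15 members had an unadjusted p under 0.05, and the median log2 fold change was 0.21 over the members and 0.01 over all genes. In NP cells no member was called either (0 of 54, against 0.381% higher and 0.246% lower), 1 had an unadjusted p under 0.05, and the medians were -0.07 and -0.02. The difference of the 2 effects, tested as an interaction, called no member (against 0.256% of all genes in either direction), with 7 members at an unadjusted p under 0.05. Without knockout ES array 2 it called 11.

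The knockout ES result depends on which array is read. Col1a1 had 11.57 and 9.52 in the knockout arrays, against 9.51 and 9.70 in the wild-type arrays. Col1a2 had 10.68 and 8.31 in the knockout arrays, against 8.54 and 8.56 in the wild-type arrays. Col3a1 had 8.26 and 6.80 in the knockout arrays, against 6.69 and 6.87 in the wild-type arrays. The first knockout array lay well above both wild-type arrays in these 3 genes, and the second lay near them. Their fitted changes were 0.94 ± 0.44 (adjusted p = 0.326), 0.95 ± 0.46 (adjusted p = 0.335) and 0.75 ± 0.40 (adjusted p = 0.393). Col4a1 had 8.49 and 7.46 in the knockout arrays, against 7.46 and 7.52 in the wild-type arrays. Col4a2 had 8.45 and 7.33 in the knockout arrays, against 7.45 and 7.44 in the wild-type arrays, again with only the first array high. In the laminin-111 chains both knockout arrays lay nearer to wild type. Lama1 had 8.94 and 9.05 in the knockout arrays, against 8.74 and 8.66 in the wild-type arrays. Lamb1 had 10.35 and 10.03 in the knockout arrays, against 10.01 and 9.96 in the wild-type arrays. Lamc1 had 10.29 and 10.83 in the knockout arrays, against 10.94 and 10.73 in the wild-type arrays. The fitted changes of these 3 chains were 0.29 ± 0.29, 0.20 ± 0.41 and -0.28 ± 0.32. Without knockout ES array 2, 17 members were called, 15 higher and 2 lower, and without array 1 none was. The same first array held 9.73 in the pluripotency list, against 10.75 in the second, and 9.12 in the mesenchymal list, against 6.63. The part of other cells in it was not tested.

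In NP cells the chains of both genotypes lay close together. Lama1 had 8.83 and 8.93 in the knockout arrays, against 9.52 and 9.34 in the wild-type arrays, the largest difference among the core chains, at -0.55 ± 0.29 (adjusted p = 0.753). Col4a1 had 7.77 and 7.64 in the knockout arrays, against 8.04 and 8.04 in the wild-type arrays. Col4a2 had 7.59 and 7.56 in the knockout arrays, against 8.09 and 7.97 in the wild-type arrays, both below wild type in both arrays without passing the test (-0.33 ± 0.35 and -0.46 ± 0.38). Lamb1 and Lamc1 differed by -0.15 ± 0.41 and -0.38 ± 0.32, and the fibrillar Col1a1, Col1a2 and Col3a1 by -0.07 ± 0.44, -0.20 ± 0.46 and 0.31 ± 0.40, none of them called.

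At TN day 2 the knockout arrays had higher signals of a mixed set of basement membrane and fibril chains (2 arrays each). Of the 54 members, 11 were higher (20.4%, against 5.49% of all genes) and none lower (0, against 5.97%), and 8 of the 11 passed a log2 fold change of 1. The median log2 fold change was 0.09 over the members and -0.04 over all genes. Called higher were 3 of 10 laminins (Lama5, Lamb1 and Lamc1), 2 of 6 collagen IV chains (Col4a5 and Col4a6), both multiplexins (Col15a1 and Col18a1), 1 of 11 fibrillar chains (Col1a1), 1 of 9 FACIT chains (Col14a1), 1 of 6 collagen VI chains (Col6a1) and Col26a1.

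The promoter sequences of 4 of these genes are printed because all were called higher in knockout than in wild type at TN day 2. They include a pair of neighbours transcribed away from each other. Each is the 250 bases before the RefSeq start on GRCm38.p6, 5′ to 3′ on the gene's own strand, from chr12:31265043-31265292 (plus strand), chr2:180225860-180226109 (minus strand), chrX:141475169-141475418 (plus strand) and chrX:141474077-141474326 (minus strand). Capitals mark a GC box (GGGCGG or its complement CCGCCC) and a CCAAT box (CCAAT or its complement ATTGG).
Lamb1: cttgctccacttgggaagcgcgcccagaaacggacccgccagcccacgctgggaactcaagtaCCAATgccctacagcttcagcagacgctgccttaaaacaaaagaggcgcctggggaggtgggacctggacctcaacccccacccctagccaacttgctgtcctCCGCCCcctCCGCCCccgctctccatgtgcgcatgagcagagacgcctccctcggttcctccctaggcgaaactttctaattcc
Lama5: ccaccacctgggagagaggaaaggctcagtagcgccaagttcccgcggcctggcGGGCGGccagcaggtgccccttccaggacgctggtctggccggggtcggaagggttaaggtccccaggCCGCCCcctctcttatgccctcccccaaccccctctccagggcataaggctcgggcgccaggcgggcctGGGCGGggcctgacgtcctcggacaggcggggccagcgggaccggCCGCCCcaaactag
Col4a5: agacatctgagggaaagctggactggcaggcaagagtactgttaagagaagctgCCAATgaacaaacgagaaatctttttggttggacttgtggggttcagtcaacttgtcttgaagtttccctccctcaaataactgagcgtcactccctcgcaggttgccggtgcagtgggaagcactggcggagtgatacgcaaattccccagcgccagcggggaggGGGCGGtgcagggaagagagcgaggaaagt
Col4a6: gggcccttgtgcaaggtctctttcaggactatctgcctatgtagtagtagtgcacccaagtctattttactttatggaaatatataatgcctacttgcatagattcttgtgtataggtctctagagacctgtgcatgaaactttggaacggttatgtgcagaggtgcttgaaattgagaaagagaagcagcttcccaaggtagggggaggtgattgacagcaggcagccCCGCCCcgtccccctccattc
The window of Lama5 held 4 GC boxes, that of Lamb1 held 2, and those of Col4a5 and Col4a6 held 1 each, while a CCAAT box was found once in Lamb1 and once in Col4a5. Matches were counted over the 250 bases before the start, for all windows and for members alike. Of all 32851 promoter windows, 32.7% held a GC box, 33.8% a CCAAT box and 12.4% the letters TATAAA or their complement TTTATA. Of the 44 windows found for 40 members, 24 held a GC box (54.5%), 14 a CCAAT box (31.8%) and 5 a TATAAA (11.4%). The other 14 members, among them Lama1 and Lamc1, are named only. These are matches of letters in a window and no sites of binding. The collagen IV genes lie in head-to-head pairs: the starts of Col4a5 and Col4a6 are 1343 bases apart, and those of Col4a1 and Col4a2 overlap by 22 bases.

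Among the laminins at TN day 2, Lamb1 had 10.04 and 10.48 in the knockout arrays, against 7.75 and 9.19 in the wild-type arrays. The groups did not overlap, and the log2 fold change was 1.79 ± 0.41 (adjusted p = 0.00606). Lamc1 had 9.52 and 10.12 in the knockout arrays, against 7.98 and 8.85 in the wild-type arrays, a change of 1.40 ± 0.32 (adjusted p = 0.00554), again without overlap. Lama5 had 7.41 and 8.29 in the knockout arrays, against 6.32 and 6.69 in the wild-type arrays, a change of 1.34 ± 0.22 (adjusted p = 0.000358). Lama1, the alpha chain that pairs with Lamb1 and Lamc1 in laminin-111, had 8.83 and 8.37 in the knockout arrays, against 8.80 and 8.58 in the wild-type arrays, so its groups overlapped, and its change was -0.09 ± 0.29 (adjusted p = 0.907).

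Among the collagen IV chains, the X-linked pair moved and the widespread pair did not pass the test. Col4a5 had 7.76 and 8.70 in the knockout arrays, against 6.51 and 6.85 in the wild-type arrays. Col4a6 had 6.44 and 7.13 in the knockout arrays, against 5.56 and 5.89 in the wild-type arrays. Both knockout arrays lay above both wild-type arrays in each gene, with changes of 1.56 ± 0.21 (adjusted p = 6.25e-05) and 1.06 ± 0.18 (adjusted p = 0.000637). Col4a1 had 7.65 and 7.42 in the knockout arrays, against 6.90 and 7.48 in the wild-type arrays. Col4a2 had 7.67 and 7.32 in the knockout arrays, against 6.93 and 7.54 in the wild-type arrays, with changes of 0.35 ± 0.35 (adjusted p = 0.644) and 0.26 ± 0.38 (adjusted p = 0.77). Col18a1 had 8.70 and 9.15 in the knockout arrays, against 7.07 and 7.58 in the wild-type arrays, a change of 1.60 ± 0.27 (adjusted p = 0.000541), or 3.04-fold.

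Col14a1, a FACIT that binds fibrils in soft tissue, had the largest fitted change of the members, with 8.06 and 9.86 in the knockout arrays, against 6.16 and 6.997 in the wild-type arrays. Its 2 knockout arrays lay far apart and both above wild type, and the change was 2.39 ± 0.37 (adjusted p = 0.000222). Without knockout array 2 it was 1.49 (adjusted p = 0.0102), still called but below the value of Lamb1 in that setting. Of the fibrillar chains, Col1a1 had 10.003 and 10.49 in the knockout arrays, against 7.98 and 9.70 in the wild-type arrays, and its change was 1.40 ± 0.44 (adjusted p = 0.0437). Col1a2 had 9.92 and 10.11 in the knockout arrays, against 8.11 and 9.58 in the wild-type arrays. Col3a1 had 10.999 and 11.30 in the knockout arrays, against 8.98 and 10.97 in the wild-type arrays. Their knockout arrays also lay above both wild-type arrays, but the changes of 1.17 ± 0.46 (adjusted p = 0.109) and 1.18 ± 0.40 (adjusted p = 0.0606) did not pass the test. Col12a1 had 10.09 and 10.96 in the knockout arrays, against 7.60 and 10.39 in the wild-type arrays, so that the groups overlapped, and its difference was 1.53 ± 0.62 (adjusted p = 0.123). Smaller changes were called for Col6a1, with 7.10 and 7.75 in the knockout arrays, against 6.34 and 6.82 in the wild-type arrays, at 0.84 ± 0.23 (adjusted p = 0.0204), and for Col15a1, with 6.56 and 6.74 in the knockout arrays, against 5.98 and 6.26 in the wild-type arrays, at 0.53 ± 0.12 (adjusted p = 0.00618). Col26a1 had 7.99 and 8.12 in the knockout arrays, against 7.37 and 7.83 in the wild-type arrays, a change of 0.45 ± 0.14 (adjusted p = 0.0419).

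Wild-type array 1 of TN day 2 lay below wild-type array 2 in all of these chains except Lama1. Some markers of other cells were also higher in the knockout arrays. The mesenchymal list averaged 7.71 and 8.13 in the knockout arrays, against 6.39 and 7.74 in the wild-type arrays, and 4 of its 11 genes were called higher. None was called lower, although Postn, S100a4 and Thy1 had lower means in the knockout, Postn with 5.98 against 7.21. The smooth muscle list averaged 6.83 and 7.36 in the knockout arrays, against 5.81 and 6.66 in the wild-type arrays, with Acta2 and Tagln called. The endoderm list averaged 6.62 and 6.71 in the knockout arrays, against 5.93 and 6.19 in the wild-type arrays, with Gata6 and Dab2 called. None of its genes was called lower, although Afp (4.44 against 4.75) and Sox7 (5.68 against 5.70) had lower means in the knockout. Pth1r (7.51 against 7.50) and Foxa2 (6.18 against 6.12) lay near wild type. Of 10 neuron genes, 7 were lower. The second wild-type array lay nearer to the knockout arrays than the first did in the mesenchymal, smooth muscle and endoderm lists. Of 11 endothelial genes 1 was higher, and of 5 neural crest and Schwann genes 1 was lower. None of 8 microglia and macrophage genes was called. The part of other cells in the chain levels was not tested. Without wild-type array 1, 5 members were called in place of 11, and Lamb1 at 1.07, Lamc1 at 0.97 and Col1a1 at 0.55 were no longer called. Without knockout array 2, 5 were called as well. With only the 4 arrays of TN day 2 in the model, Col18a1 alone was called. With both knockout ES arrays left out of the pooled spread, a setting chosen after seeing the data, 17 members were called, Col1a2 and Col3a1 among them.

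Genes that fold and crosslink collagen moved with them. Of 25 measured genes of this kind, 10 were higher in knockout arrays at TN day 2 and 1 was lower. Serpinh1 (HSP47) changed by 1.38 ± 0.29 (adjusted p = 0.00299), Crtap, a partner in prolyl 3-hydroxylation, by 1.77 ± 0.31 (adjusted p = 0.00067), and Lox by 2.01 ± 0.59 (adjusted p = 0.0288), while Adamts3, a procollagen N-proteinase, was lower, at -1.40 ± 0.38 (adjusted p = 0.0179). Of 14 basement membrane partners 6 were higher and 2 lower, with Hspg2, which encodes perlecan, at 1.66 ± 0.26 (adjusted p = 0.000242) and Nid2 at 1.91 ± 0.33 (adjusted p = 0.000545). Of 13 receptors 3 were higher, led by Itga1, the alpha chain of a collagen-binding integrin, at 1.85 ± 0.22 (adjusted p = 1.28e-05). Of 10 proteases and inhibitors 3 were higher, Mmp2, Mmp14 and Timp3, at 1.63 ± 0.39, 1.61 ± 0.36 and 1.43 ± 0.44.

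**Figure D3:**
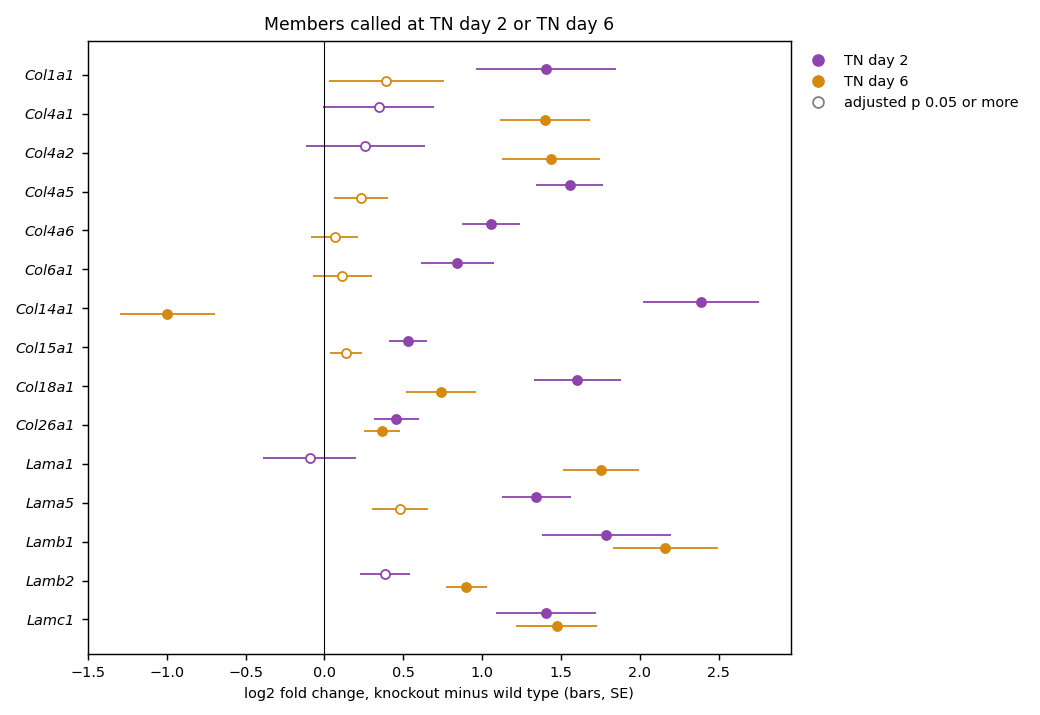
Log2 fold change, knockout minus wild type, with its SE for the 15 members called at TN day 2 (purple) or TN day 6 (orange); filled points have an adjusted p under 0.05. Lamb1, Lamc1, Col18a1 and Col26a1 are filled at both stages, Lama1, Col4a1 and Col4a2 at TN day 6, Lama5, Col4a5 and Col4a6 at TN day 2, and Col14a1 is filled on opposite sides of 0.

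At TN day 6 the knockout arrays had higher signals of all 3 laminin-111 chains and of both widespread collagen IV chains (3 arrays each). Of the 54 members, 8 were higher (14.8%, against 5.38% of all genes) and 1 lower (1.85%, against 4.8%), and 5 of the 8 passed a log2 fold change of 1. These 5 were Lama1, Lamb1, Lamc1, Col4a1 and Col4a2. Col14a1 was the only member called lower. The median log2 fold change was 0.09 over the members and 0.00 over all genes.

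Lamb1 had 10.77, 10.86 and 9.13 in the knockout arrays, against 8.02, 8.20 and 8.06 in the wild-type arrays, a change of 2.16 ± 0.33 (adjusted p = 0.000111), or 4.47-fold. Lama1 had 10.25, 10.16 and 8.83 in the knockout arrays, against 7.90, 8.10 and 7.97 in the wild-type arrays, a change of 1.76 ± 0.24 (adjusted p = 2.91e-05). Lamc1 had 10.08, 9.97 and 8.78 in the knockout arrays, against 8.07, 8.21 and 8.13 in the wild-type arrays, a change of 1.47 ± 0.26 (adjusted p = 0.000456). In all 3 laminin-111 chains, knockout arrays 1 and 2 stood well above knockout array 3, which itself lay above all 3 wild-type arrays. Col4a1 had 9.37, 9.40 and 7.77 in the knockout arrays, against 7.50, 7.38 and 7.46 in the wild-type arrays. Col4a2 had 9.48, 9.46 and 7.77 in the knockout arrays, against 7.42, 7.48 and 7.50 in the wild-type arrays. The head-to-head pair had changes of 1.40 ± 0.29 (adjusted p = 0.00198) and 1.44 ± 0.31 (adjusted p = 0.00304). Lamb2 had 7.61, 7.46 and 7.18 in the knockout arrays, against 6.66, 6.45 and 6.44 in the wild-type arrays, without overlap, and changed by 0.90 ± 0.13 (adjusted p = 5.28e-05).

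Col18a1 had 7.11, 7.18 and 6.98 in the knockout arrays, against 6.35, 6.30 and 6.40 in the wild-type arrays, a change of 0.74 ± 0.22 (adjusted p = 0.0368), with the 3 knockout arrays close together. Col26a1 had 7.36, 7.56 and 7.60 in the knockout arrays, against 7.09, 7.05 and 7.28 in the wild-type arrays, a change of 0.37 ± 0.12 (adjusted p = 0.0494). Col14a1 had 6.10, 6.12 and 6.16 in the knockout arrays, against 7.14, 7.07 and 7.17 in the wild-type arrays, a change of -0.998 ± 0.30 (adjusted p = 0.0358), and both groups were narrow. The following 3 fibrillar chains lay above wild type in all knockout arrays without passing the test. Col3a1 had 8.83, 8.83 and 8.80 in the knockout arrays, against 7.77, 7.96 and 7.92 in the wild-type arrays, a difference of 0.94 ± 0.33 (adjusted p = 0.0776). Col1a1 had 8.36, 8.57 and 8.50 in the knockout arrays, against 8.06, 8.14 and 8.05 in the wild-type arrays, a difference of 0.39 ± 0.36 (adjusted p = 0.657). Col1a2 had 8.14, 8.26 and 8.04 in the knockout arrays, against 7.59, 7.87 and 7.72 in the wild-type arrays, a difference of 0.42 ± 0.37 (adjusted p = 0.637).

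**Figure D4:**
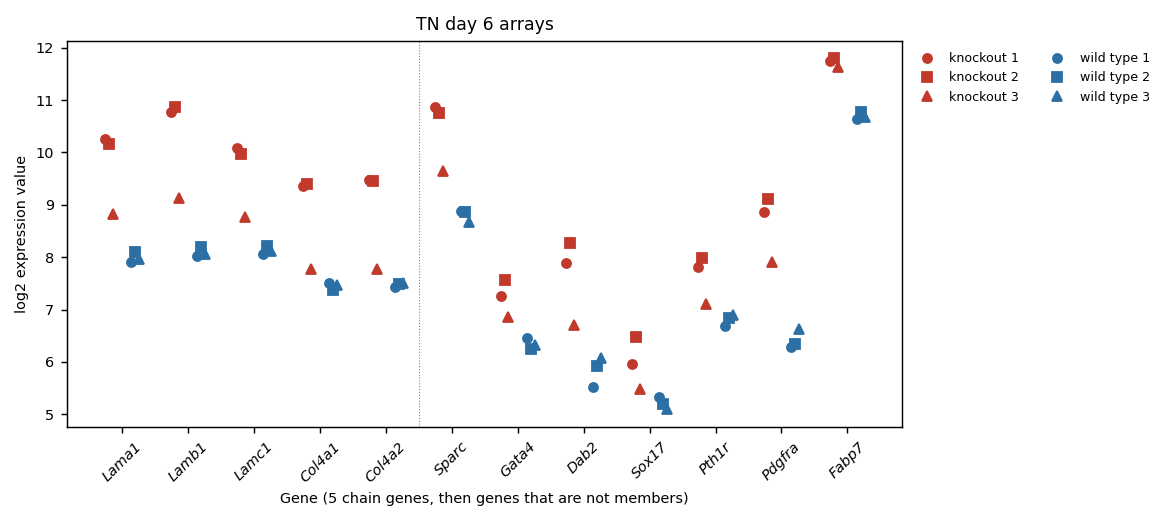
Log2 expression values of the 3 laminin-111 chains and the widespread collagen IV pair, left of the dotted line, and of 7 genes that are not members, right of it, in the 3 knockout (red) and 3 wild-type (blue) arrays of TN day 6. Knockout array 3 (red triangle) lies between knockout arrays 1 and 2 and the wild-type arrays in all 5 chains and in Sparc, Gata4, Dab2, Sox17, Pth1r and Pdgfra, and next to its replicates in Fabp7.

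Some markers of endoderm showed the same split of the knockout arrays. The mean of the 10 primitive and parietal endoderm genes was 6.47, 6.66 and 5.98 in the knockout arrays, against 5.73, 5.80 and 5.79 in the wild-type arrays, and 2 of 10 were called higher. The split was not particular to endoderm genes. Knockout array 3 was also lowest in the means of the cell cycle genes (7.76, 7.84 and 7.33) and the basement membrane partners (7.76, 7.81 and 7.51). It was not lowest in that of the receptors (7.08, 7.14 and 7.12). Dab2 had 7.89, 8.26 and 6.71 in the knockout arrays, against 5.53, 5.92 and 6.08 in the wild-type arrays (1.78 ± 0.39, adjusted p = 0.0038). Pth1r, the parathyroid hormone receptor of parietal endoderm, had 7.82, 7.98 and 7.10 in the knockout arrays, against 6.69, 6.84 and 6.89 in the wild-type arrays (0.83 ± 0.16, adjusted p = 0.00125). Gata4 had 7.26, 7.56 and 6.86 in the knockout arrays, against 6.46, 6.25 and 6.32 in the wild-type arrays. Sox17 had 5.97, 6.47 and 5.48 in the knockout arrays, against 5.32, 5.19 and 5.10 in the wild-type arrays. Neither was called. Of the other lists, 1 of 11 mesenchymal genes was called higher, Pdgfra, with 8.86, 9.11 and 7.90 in the knockout arrays, against 6.29, 6.34 and 6.64 in the wild-type arrays, as were 4 of 8 astrocyte and radial glia genes and all 6 cell cycle genes. Of 11 endothelial genes 2 were higher, Flt1 at 1.68 ± 0.24 (adjusted p = 4.58e-05) and Tek at 0.47 ± 0.12 (adjusted p = 0.0167). Of 5 neural crest and Schwann genes 2 were higher and 1 lower, and of 8 pluripotency genes 2 were higher. None of 8 smooth muscle genes was called. The part of such cells in the laminin and collagen IV levels was not tested. Leaving out 1 array at a time, the change of Lamb1 lay between 1.86, without knockout array 2, and 2.72, without knockout array 3. The calls of Lama1, Lamb1, Lamc1 and Col4a1 were kept in all 14 alternative settings run, and that of Col4a2 was lost in 1, with an adjusted p of 0.0536 when only the 6 arrays of TN day 6 were modelled.

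Of 25 genes for collagen folding and crosslinking, 6 were higher at TN day 6 and none lower, among them Plod2, a lysyl hydroxylase, at 1.91 ± 0.27 (adjusted p = 3.97e-05), P4ha1, a prolyl 4-hydroxylase subunit, at 1.17 ± 0.24 (adjusted p = 0.00189), and Sparc, the collagen IV binding protein secreted in bulk by parietal endoderm, at 1.62 ± 0.26 (adjusted p = 0.000158). Sparc had 10.87, 10.75 and 9.65 in the knockout arrays, against 8.87, 8.86 and 8.68 in the wild-type arrays, with knockout array 3 between its replicates and wild type as in the laminins. Of 14 basement membrane partners 2 were higher, Nid2 at 1.30 ± 0.27 (adjusted p = 0.002) and Fbln1 at 1.29 ± 0.14 (adjusted p = 1.19e-06). Of 13 receptors 1 was higher, Itga6, the alpha chain of a laminin-binding integrin, at 1.03 ± 0.15 (adjusted p = 5.97e-05). Of 10 proteases and inhibitors, Mmp14 and Timp3 were higher and Mmp16 was lower.

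Whether the knockout effect differed between stages was tested with interactions. Between NP cells and TN day 2, 6 members had a larger effect at TN day 2 and none a smaller one (11.1% of the members in all, against 2.71% of all genes in either direction). They were Col14a1, Lamc1, Col18a1, Col4a5, Lama5 and Col4a6, with differences of 2.12, 1.78, 1.66, 1.54, 1.49 and 0.99 log2 units. Lamb1 differed by 1.94 ± 0.58 (adjusted p = 0.0805) and was not called, nor were Col1a1 (1.47 ± 0.63), Col1a2 (1.37 ± 0.65), Col3a1 (0.87 ± 0.57), Col4a1 (0.68 ± 0.50), Col4a2 (0.72 ± 0.53) and Lama1 (0.45 ± 0.42). Between TN day 2 and TN day 6, Lama1 had a larger effect at TN day 6, by 1.85 ± 0.38 (adjusted p = 0.00565), and Col14a1, Col4a5 and Col4a6 had a lower one, with differences of -3.39 ± 0.48 (adjusted p = 0.000168), -1.32 ± 0.27 (adjusted p = 0.00584) and -0.99 ± 0.24 (adjusted p = 0.016). These 4 are 7.41% of the members, against 4.8% of all genes in either direction. Col4a1 and Col4a2, called at TN day 6 and not at TN day 2, differed by 1.06 ± 0.45 (adjusted p = 0.217) and 1.18 ± 0.49 (adjusted p = 0.196), so that their effects were not shown to differ. Lamb1 (0.37 ± 0.53) and Lamc1 (0.07 ± 0.41) were not called, and Col1a1, Col1a2 and Col3a1 differed by -1.01 ± 0.57, -0.75 ± 0.59 and -0.24 ± 0.52 without a call. Both interactions use the TN day 2 arrays. Without wild-type array 1 of TN day 2 the first called 0 members and the second 2, without wild-type array 2 they called 12 and 7, and without knockout array 2 they called 0 and 1. Without an NP array, the first called 1 (either knockout array left out), 2 (wild-type array 1) or 3 (wild-type array 2).

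ICRF-193 was compared with DMSO at TN day 5 (2 arrays each). Of the 54 members, 3 were higher (5.56%, against 2.51% of all genes) and 2 lower (3.7%, against 6.37%). The 2 lower members, Col14a1 and Col6a3, each fell by more than 1 log2 unit, and the 3 higher members rose by less. Col14a1 had 6.43 and 6.67 with ICRF-193, against 7.35 and 8.24 with DMSO, a change of -1.25 ± 0.37 (adjusted p = 0.0375). Col6a3, the long chain of the collagen VI microfibril, had 6.69 and 6.34 with ICRF-193, against 7.52 and 8.001 with DMSO, a change of -1.25 ± 0.32 (adjusted p = 0.0176). In both genes the ICRF-193 arrays lay below both DMSO arrays. Without DMSO array 2 neither was called, at -0.80 (adjusted p = 0.431) and -1.01 (adjusted p = 0.214). The largest difference was that of Col12a1, with 6.36 and 6.69 with ICRF-193, against 7.87 and 8.46 with DMSO, without overlap, but at -1.63 ± 0.62 (adjusted p = 0.106) it did not pass the test.

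Lamc3, a gamma chain of cortical and retinal laminins, had 7.05 and 6.98 with ICRF-193, against 6.37 and 6.55 with DMSO, a change of 0.55 ± 0.12 (adjusted p = 0.00663). Col24a1, a fibrillar chain, had 6.36 and 6.28 with ICRF-193, against 5.98 and 5.87 with DMSO, a change of 0.39 ± 0.09 (adjusted p = 0.00791). Col9a1, a FACIT of cartilage, had 6.82 and 6.54 with ICRF-193, against 6.41 and 6.15 with DMSO, a change of 0.40 ± 0.12 (adjusted p = 0.0389). Col3a1 had 9.39 and 9.09 with ICRF-193, against 10.19 and 10.43 with DMSO, without overlap. Lamc1 had 7.77 and 8.20 with ICRF-193, against 8.73 and 9.02 with DMSO, also without overlap, but neither change passed the test, at -1.07 ± 0.40 (adjusted p = 0.102) and -0.89 ± 0.32 (adjusted p = 0.0839). The other core chains were not called either, with -0.36 ± 0.44 for Col1a1, -0.70 ± 0.46 for Col1a2, -0.16 ± 0.35 for Col4a1, -0.09 ± 0.38 for Col4a2, -0.03 ± 0.29 for Lama1 and -0.44 ± 0.41 for Lamb1. Of 11 mesenchymal and fibroblast genes, Dcn alone was called, at -1.76 ± 0.53 (adjusted p = 0.0406), and the list averaged 6.52 and 6.23 with ICRF-193, against 6.73 and 7.06 with DMSO. The astrocyte and radial glia list averaged 5.59 and 5.40 with ICRF-193, against 6.87 and 7.46 with DMSO, and the part of such cells in the chain levels was not tested. Without DMSO array 2 or without ICRF-193 array 1, 1 member was called.

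In cortical neurons (3 arrays each), 3 of 54 members were higher with ICRF-193 (5.56%, against 9.72% of all genes) and 1 lower (1.85%, against 13.7%), so that the shares of the chain genes lay below those of all genes. Lama2, the alpha chain of muscle and vessel laminin, had 5.34, 5.21 and 5.25 with ICRF-193, against 6.24, 6.05 and 6.17 with DMSO. The groups did not overlap, and the change was -0.89 ± 0.20 (adjusted p = 0.00267). Lamc3 had 6.66, 6.77 and 6.87 with ICRF-193, against 6.41, 6.26 and 6.36 with DMSO, a change of 0.42 ± 0.10 (adjusted p = 0.00422). Both calls were kept in all alternative settings run. The probe set of Lama2 was dim, with a highest group mean of 6.26, so the fit without dim genes could not test it. Col28a1 had 5.08, 5.33 and 5.28 with ICRF-193, against 4.71, 4.85 and 4.94 with DMSO (0.40 ± 0.13, adjusted p = 0.0309). Col7a1 had 6.92, 6.94 and 6.97 with ICRF-193, against 6.77, 6.67 and 6.71 with DMSO (0.23 ± 0.08, adjusted p = 0.0406), and these calls were lost in 6 of 13 and 9 of 14 settings. Lamb1 had 7.82, 7.86 and 7.83 with ICRF-193, against 8.39, 8.46 and 8.47 with DMSO, narrow and without overlap. Its difference of -0.60 ± 0.33 (adjusted p = 0.2) was not called against a spread pooled over all groups, and with only the 6 cortical arrays in the model its adjusted p was 0.000114. Lamc1 differed by -0.32 ± 0.26, Lama1 by 0.33 ± 0.24, Col4a1 by 0.10 ± 0.29, Col4a2 by -0.13 ± 0.31, Col1a1 by 0.37 ± 0.36, Col1a2 by 0.26 ± 0.37 and Col3a1 by -0.18 ± 0.33, none of them called. That model of the cortical arrays alone called 23 members, and leaving out DMSO array 1 or 2 or ICRF-193 array 2 or 3 left 2 in place of 4.

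Glial markers moved with these changes in cortical neurons: all 8 microglia and macrophage genes were higher with ICRF-193 and 7 of 8 astrocyte and radial glia genes were lower. The astrocyte and radial glia list averaged 7.18, 7.09 and 7.11 with ICRF-193, against 8.77, 8.73 and 8.77 with DMSO. Of 11 mesenchymal and fibroblast genes, Thy1 was higher (1.13 ± 0.30, adjusted p = 0.0101) and Pdgfra lower (-3.75 ± 0.41, adjusted p = 5.37e-07). The part of other cells in the lower Lama2 values was not tested. Of the pathway lists, 4 of 10 proteases and inhibitors were lower, among them Timp3 at -1.49 ± 0.36 (adjusted p = 0.0049), and of 14 basement membrane partners 2 were higher and 3 lower, with Fn1, which encodes fibronectin, at -1.48 ± 0.24 (adjusted p = 0.000109). No member was called in the test of whether the ICRF-193 effect differed between cortical neurons and TN day 5 (0 of 54, against 4.37% of all genes in either direction), with 5 members at an unadjusted p under 0.05. The differences were 0.72 ± 0.57 (adjusted p = 0.636) for Col1a1, 0.96 ± 0.59 (adjusted p = 0.496) for Col1a2 and 0.89 ± 0.52 (adjusted p = 0.453) for Col3a1, and between -0.16 and 0.57 for Lamb1, Col4a2, Col4a1, Lama1 and Lamc1, none of them called.

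**Figure D5:**
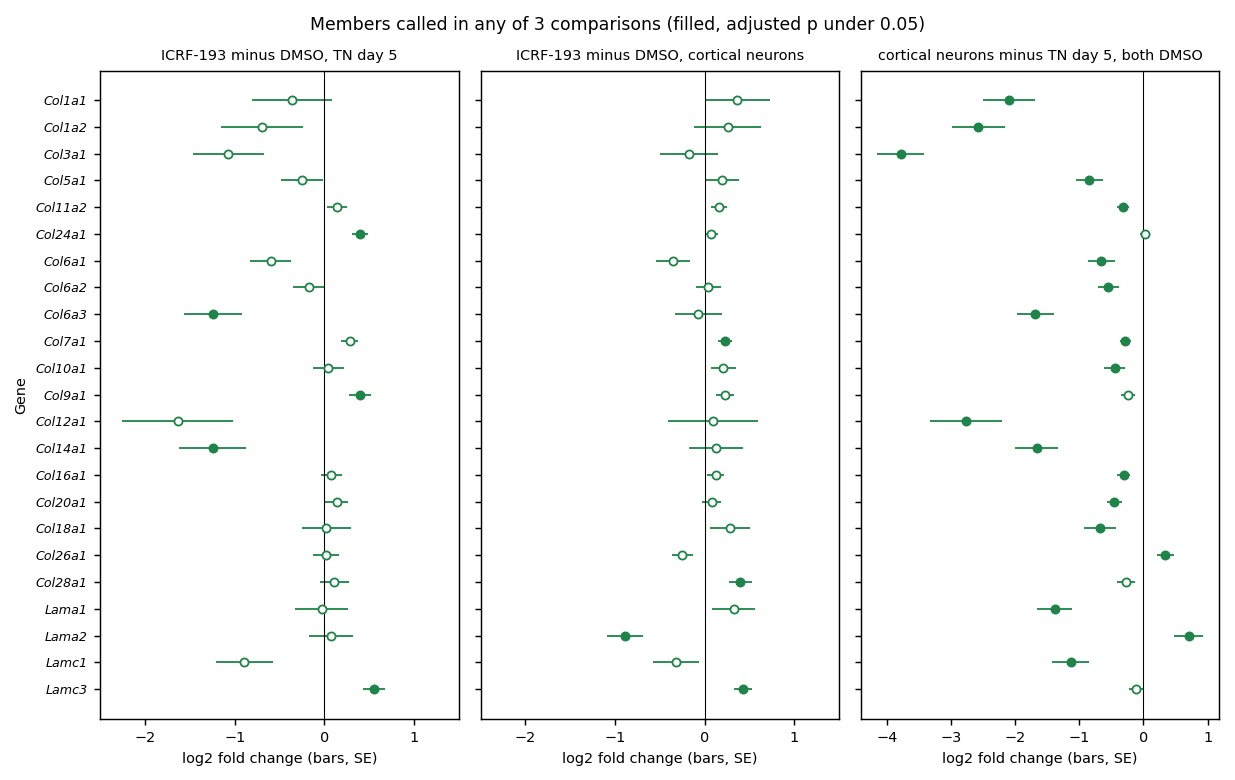
Log2 fold change with its SE for members called in any of 3 comparisons: ICRF-193 minus DMSO at TN day 5 and in cortical neurons on a shared scale, and cortical neurons minus TN day 5 with DMSO; filled points have an adjusted p under 0.05. Lamc3 is filled in both treatment panels, Col14a1 and Col6a3 at TN day 5, Lama2 in cortical neurons, and most points of the third panel lie left of 0.

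The solvent-treated neurons of both sources were compared last, a comparison in which source and experiment cannot be told apart. Cortical arrays (3, against 2 at TN day 5) had lower signals of Col3a1, Col1a1, Col1a2, Col12a1, Col14a1 and all 3 main collagen VI chains. Of the members, 2 of 54 members were higher (3.7%, against 24.4% of all genes) and 17 lower (31.5%, against 20.4%), and 15 of the 17 were collagens. Col3a1 had 6.42, 6.53 and 6.61 in cortical neurons, against 10.19 and 10.43 at TN day 5, a change of -3.79 ± 0.37 (adjusted p = 4.5e-08). Col1a2 had 6.64, 6.76 and 6.85 in cortical neurons, against 9.02 and 9.64 at TN day 5 (-2.58 ± 0.42, adjusted p = 4.09e-05). Col1a1 had 7.36, 7.11 and 7.06, against 9.01 and 9.52 at TN day 5 (-2.09 ± 0.41, adjusted p = 0.000283). No cortical array reached a TN day 5 array in these 3 genes. Col12a1, Col6a3 and Col14a1 were lower, at -2.77 ± 0.56 (adjusted p = 0.000469), -1.69 ± 0.29 (adjusted p = 9.45e-05) and -1.67 ± 0.34 (adjusted p = 0.000428).

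Among the laminins, Lama1 had 6.34, 6.27 and 6.03 in cortical neurons, against 7.34 and 7.86 at TN day 5 (-1.39 ± 0.27, adjusted p = 0.000285). Lamc1 had 7.62, 7.79 and 7.83, against 8.73 and 9.02 at TN day 5 (-1.13 ± 0.29, adjusted p = 0.00319). Lamb1 (-0.12 ± 0.37), Col4a1 (-0.42 ± 0.32) and Col4a2 (-0.17 ± 0.35) were not called. The 2 higher members were Lama2, with 6.24, 6.05 and 6.17 in cortical neurons, against 5.57 and 5.33 at TN day 5 (0.71 ± 0.22, adjusted p = 0.0139), and Col26a1 (0.34 ± 0.13, adjusted p = 0.0385). Of 11 mesenchymal and fibroblast genes 2 were higher in cortical neurons, Pdgfra (2.86 ± 0.46, adjusted p = 3.52e-05) and Thy1 (1.55 ± 0.34, adjusted p = 0.000931), and 4 lower, Dcn (-4.45 ± 0.48, adjusted p = 2.52e-07), Postn, Twist1 and Lum. Of 14 basement membrane partners none was higher and 7 were lower, with Nid1 at -2.69 ± 0.37 (adjusted p = 6.03e-06). Of 8 astrocyte and radial glia genes 7 were higher and of 8 microglia genes 6 were higher in cortical neurons, and the part of different cell mixtures was not tested. With arrays centred on their medians, 12 members were called in place of 19.

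Chain genes are often long, and blocking topoisomerases is known to lower the expression of long genes in neurons. Of the 54 members, 31 span more than 100 kb in the RefSeq annotation of GRCm38.p6. Of these 31, 7 were higher and none lower in knockout arrays at TN day 2, and 6 were higher and 1 lower at TN day 6. Of all 2294 genes that long, 205 were higher and 373 lower at TN day 2 and 184 higher and 326 lower at TN day 6. Of the 23 shorter members, 4 were higher at TN day 2 and 2 at TN day 6, with none lower. Of all 17562 genes that short, 888 were higher and 815 lower at TN day 2, and 886 higher and 629 lower at TN day 6. With ICRF-193 at TN day 5, 1 of the 31 was higher and 1 lower, while of all genes that long 64 were higher and 433 lower. With ICRF-193 in cortical neurons, 1 of the 31 was higher and 1 lower, while of all genes that long 204 were higher and 742 lower. Of the 23 shorter members, 2 were higher and 1 lower with ICRF-193 at TN day 5, and 2 higher and none lower in cortical neurons. Of all genes that short, 433 were higher and 837 lower at TN day 5, and 1724 higher and 1979 lower in cortical neurons. These counts are a description and were not tested against each other.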

How the data were processed

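The deposited table holds log2 expression values of 35556 probe sets, which the authors made before deposit. The submitters' processing notes name oligo 1.14.0 as the tool. The log base was inferred from the range of the values, 1.96 to 13.99. A value of a dim probe set is raised by background, so its changes are understated. Probe sets were named through the platform annotation, in which 21789 carried 1 symbol, 1621 several and 12146 were unnamed here, and the probe set with the highest mean was kept for each gene. A linear model of the 12 group means was fitted to all 19938 genes with limma 3.58.1 in R 4.3.3, with moderated standard errors (16 residual and 4.87 prior degrees of freedom) and Benjamini-Hochberg adjustment over all genes within each of 10 comparisons and 4 interactions. Fold changes are differences of log2 means, ± is the SE, and a member was called at an adjusted p under 0.05. The number of arrays limits the precision: the median SE over all 19938 genes was 0.144 for groups of 2 and 0.118 for groups of 3. Many of the chain genes named had larger SEs, which are printed with their changes. The steps were tested on simulated data. Alternatives were other scalings, a filter on dim probe sets, the mean of all probe sets of a gene, array weights, only the arrays compared, the replicate number as a block, and each array left out.

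Members named in a comparison were those called with a log2 fold change of at least 1, 8 core chains (Col1a1, Col1a2, Col3a1, Col4a1, Col4a2, Lama1, Lamb1 and Lamc1), all called members where under 5 were called, and the highest and lowest of each role by mean level. Other members and the non-members were named after their values were seen. The members, gene lists and tests were chosen with earlier results of these data known. Promoter windows came from RefSeq on GRCm38.p6.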

Additional observations from a re-analysis of the deposited data

Results flagged for a closer look

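The effect of Top2β knockout on 7 chain genes differed between neighbouring stages by the interaction test of limma. The effect at TN day 2 exceeded that in NP cells by 2.12 ± 0.52 log2 units for Col14a1 (adjusted p = 0.0315), 1.78 ± 0.45 for Lamc1 (adjusted p = 0.0346), 1.66 ± 0.39 for Col18a1 (adjusted p = 0.0238), 1.54 ± 0.30 for Col4a5 (adjusted p = 0.00824), 1.49 ± 0.31 for Lama5 (adjusted p = 0.0122) and 0.99 ± 0.26 for Col4a6 (adjusted p = 0.0446). The effect at TN day 6 minus that at TN day 2 was -3.39 ± 0.48 for Col14a1 (adjusted p = 0.000168), -1.32 ± 0.27 for Col4a5 (adjusted p = 0.00584), -0.99 ± 0.24 for Col4a6 (adjusted p = 0.016) and 1.85 ± 0.38 for Lama1 (adjusted p = 0.00565). The 2 tests share the TN day 2 arrays. Col14a1, Col4a5 and Col4a6 therefore enter both with the same TN day 2 values. Of the TN day 2 effects they rest on, Lama1 was at -0.09 ± 0.29 and was not called, and the other 6 genes were called higher.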

How the results depend on the processing

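Of 1951 named values recomputed under alternatives, 1745 kept their direction and side of the threshold, 103 lost a call, 65 gained one, 38 values without a call moved, and none reversed; 26 of 55 named calls were kept in every setting run. The cause of each move below was not tested. With only the arrays compared, 1 member was called for knockout at TN day 2 in place of 11, 3 for ICRF-193 at TN day 5 in place of 5, 23 for ICRF-193 in cortical neurons in place of 4, and 1, 2 and 6 for the TN day 2, TN day 6 and ICRF-193 interactions in place of 6, 4 and 0. With array weights, ICRF-193 called 1 member at TN day 5 and 18 in cortical neurons, and its interaction 2. Median centring called 12 members between the DMSO groups in place of 19, and quantile normalization 1 in the ICRF-193 interaction. Leaving both knockout ES arrays out of the fit, chosen after seeing the data, called 17 members for knockout at TN day 2, 9 for ICRF-193 at TN day 5, 7 in cortical neurons and 2 in their interaction. Leaving out 1 array at a time called 0 to 17 members for knockout in ES cells and 5 to 16 at TN day 2, 1 to 7 for ICRF-193 at TN day 5 and 2 to 3 in cortical neurons, 6 to 14 for NP against ES cells, 6 to 12 for TN day 2 against NP cells and 3 to 13 for TN day 6 against TN day 2, and 0 to 11, 0 to 12 and 1 to 7 for the NP, TN day 2 and TN day 6 interactions.

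Same-numbered arrays did not deviate together throughout, with correlations of deviations of 0.04 in ES cells, -0.23 in NP cells, 0.14 at TN day 2, -0.02 to 0.07 at TN day 6, 0.38 at TN day 5 and -0.06 to -0.01 in cortical neurons, so the numbers were not taken to pair arrays. With the replicate number as a block, 14 members were called for knockout at TN day 2, 8 at TN day 6, 7 for ICRF-193 at TN day 5, 4 in cortical neurons and 1 in their interaction. The crossed pairing of NP arrays, chosen after seeing the data, called 0 members. Dim probe sets, at or below the median signal, and 2 or 3 arrays a group limit what could be called.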
